A study of Gallus gallus with 24 samples.

Results

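The 55 genes described here were expressed at similar levels in the collar epithelium and the papilla ectoderm of the growing chicken feather, and at lower levels in the other 4 tissues of the follicle. They were chosen from the 17108 genes in the count tables by tissue means in CPM (a gene's counts scaled by the total of its file to a common library size). Both means had to reach 10 CPM and lie less than 2-fold apart, and the lower of them had to be at least 1.5 times the mean of every other tissue. Genes whose male libraries exceeded the female libraries in all 6 tissues, or the reverse, had been dropped. RNA came from adult chickens, 2 males and 2 females, and every bird gave collar epithelium, papilla ectoderm, upper follicle sheath, lower follicle sheath, pulp and dermal papilla of its sickle feathers, which are long, curved tail feathers. The 24 libraries of polyadenylated RNA thus form 12 groups, each of 2 birds of a sex for a tissue. The labels number the males 53 and 68 and the females 52 and 120, called male 1, male 2, female 1 and female 2 below. They give neither breed nor treatment, and do not say how the tissues were separated.

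A feather grows from the collar, a ring of dividing epithelium at the base of the follicle whose cells move upwards and form the branches of the feather. The papilla ectoderm is the epithelium that covers the dermal papilla, the signalling connective tissue at the bottom of the follicle, and it lies directly below the collar. The pulp is the vascular connective core of the feather, and the sheaths form the wall of the follicle. The files give genes by Ensembl identifier without names, and 0 of the 17108 identifiers matched the reference table used here. The 55 genes could therefore not be sorted by function, and the lists of epithelial, mesenchymal and signalling genes drawn up by symbol could not be applied. The tissue labels could not be checked against marker genes for the same reason. Only a few identifiers are given.

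Libraries held 12514383 to 31404619 counts, and 3 of them stood apart. The papilla ectoderm of male 1 held far less of the transcripts high in pulp and low in collar than that of the other birds. The lower sheath and dermal papilla of female 1 held far more of the collar-typical transcripts. The values are given below. Without the male 1 library 39 genes met the conditions, 34 of the 55 among them. Without both female 1 libraries 57 genes met them, with all 55 included.

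The levels up to the comparison of scalings describe the choice itself and carry no test. Summed over the 55 genes, the collar epithelium held 7445 and 6418 CPM in males 1 and 2, and 5011 and 6068 CPM in females 1 and 2. The papilla ectoderm held 9091 and 3942 CPM in the males, and 4185 and 6654 CPM in the females. These sums are 0.394% to 0.909% of all counts. The collar libraries held 6236 ± 1004 CPM (SD, n = 4), and those of the papilla ectoderm spread more widely (5968 ± 2416 CPM). The other tissues held 2082 ± 213 CPM (upper sheath), 1464 ± 524 CPM (lower sheath), 2280 ± 118 CPM (pulp) and 1853 ± 427 CPM (dermal papilla). In these sums no library of the collar or papilla ectoderm overlapped with any library of the other 4 tissues.

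**Figure D1:**
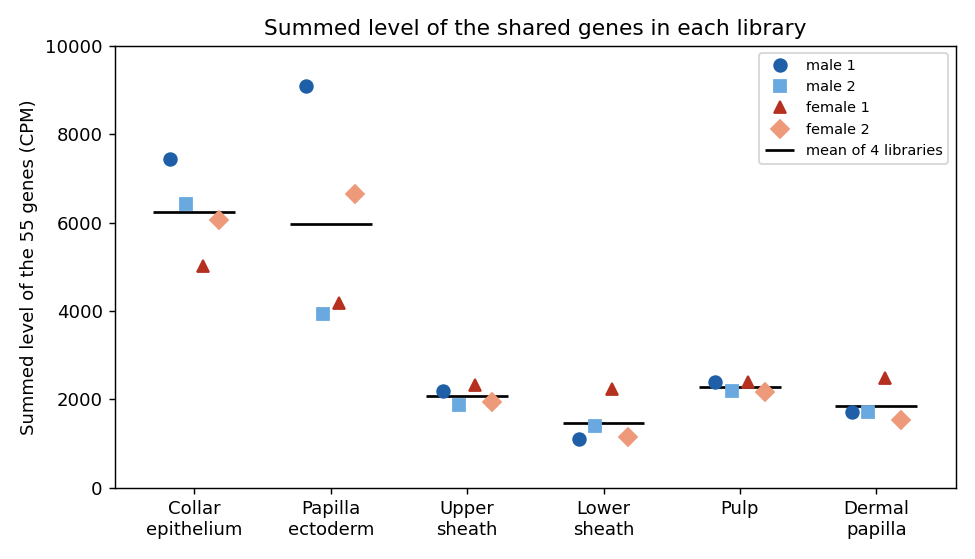
Summed level in CPM (y axis) of the 55 genes in each of the 24 libraries, by tissue (x axis); each point is a library, its shape and colour give the bird, and the black line is the mean of 4 libraries. The papilla ectoderm runs from 3942 CPM (male 2) to 9091 CPM (male 1), and female 1 stands highest in the lower sheath (2225 CPM) and the dermal papilla (2481 CPM).

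The gene with the largest ratio was ENSGALG00000026503.1, whose lower tissue mean was 14.4 times the highest of the other tissues. It had 23.6, 19.7, 13.2 and 28.3 CPM in the collar of male 1, male 2, female 1 and female 2. In the papilla ectoderm the same birds had 29.8, 5.92, 6.63 and 16.6 CPM. Its highest level in the other 16 libraries was 2.03 CPM, in the dermal papilla of female 1. It was thus low in every other tissue, while its papilla ectoderm values differed by several fold between birds. ENSGALG00000028759.1 came second with a ratio of 5.46, at 69.5 ± 11.3 CPM in the collar and 52.1 ± 24.8 CPM in the papilla ectoderm (SD, n = 4). Its next tissue was the lower sheath, at 2.51, 4.59, 22.0 and 9.03 CPM in male 1, male 2, female 1 and female 2, so that female 1 alone held more than the other 3 birds together.

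Most members were less sharply set apart. The median ratio was 1.98, with 10 genes above 3 and 29 below 2. The last gene inside had a ratio of 1.52 and the first outside 1.49. The lowest member mean was 10.4 CPM, against 9.15 CPM in the nearest gene outside. The widest distance between the 2 tissues was 1.98-fold inside and 2.05-fold in the nearest gene outside. A further 28 genes met the level and the ratio but were 2-fold or more apart, 17 higher in the collar and 11 higher in the papilla ectoderm. In 26 of the 55 genes all 8 libraries of the collar and papilla ectoderm lay above all 16 of the other tissues, against 0.765% of the 7451 genes with at least 10 CPM in both tissues, a count the choice itself favours. The most abundant member was ENSGALG00000011870.3, at 918 ± 148 CPM in the collar and 736 ± 275 CPM in the papilla ectoderm, but also at 355 to 477 CPM on average in the other 4 tissues. The next, ENSGALG00000011696.4, stood at 311 ± 95.4 and 518 ± 240 CPM in the same 2 tissues and at 83.1 to 163 CPM on average elsewhere. The collar mean was higher in 36 of the 55 genes and the papilla ectoderm mean in 19, with a median ratio of collar to papilla ectoderm of 1.11 (range 0.535 to 1.98), by file totals.

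**Figure D2:**
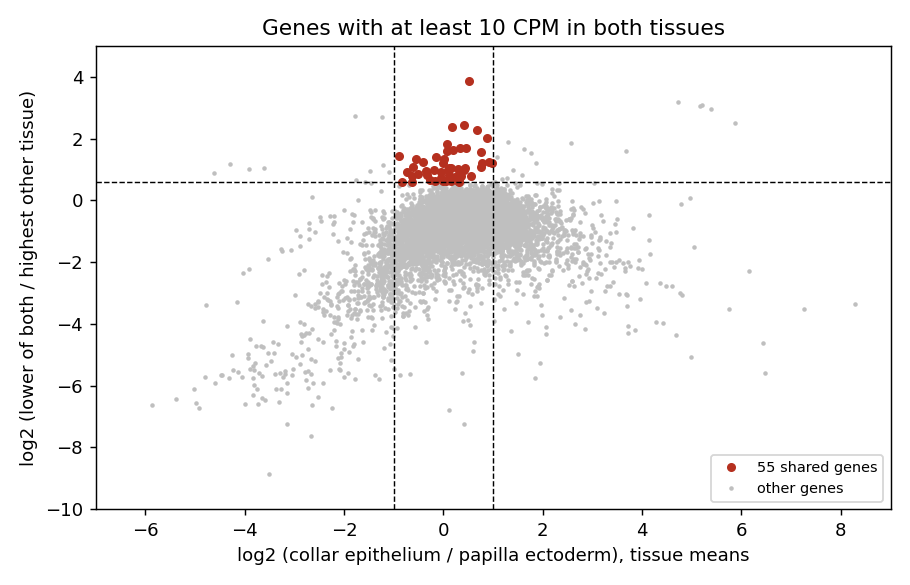
Each point is a gene with at least 10 CPM in both tissues and no sex order common to all tissues; the x axis is the log2 ratio of the collar mean to the papilla ectoderm mean, the y axis the log2 ratio of the lower of both to the highest other tissue, and dashed lines mark the limits of the choice. The 55 chosen genes (red) fill the upper middle field as the edge of a continuous cloud.

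The size of the set and the order of the tissues depended on how libraries were scaled. In the papilla ectoderm the 10 most abundant genes took 25.5% to 42.7% of all counts, against 7.89% to 17.1% in the other tissues, and a share of that size lowers the CPM of every other gene. With CPM scaled by TMM factors, which discount such genes, 277 genes met the same conditions, and 52 of the 55 were among them. The factors ran from 0.687 to 1.01 in the papilla ectoderm and from 1.20 to 1.22 in the pulp. In the pulp the mean sum of the 55 genes fell from 2280 to 1886 CPM with them. The part of either tissue in the changes between scalings was not tested. Of the 15 possible pairs of tissues, collar and papilla ectoderm ranked 7th with 55 genes by file totals, below upper sheath and collar (229 genes), pulp and dermal papilla (211), both sheaths (188) and lower sheath and dermal papilla (142). With TMM factors it ranked 1st with 277, against 198, 91, 204 and 205 genes in those 4 pairs. The order of collar and papilla ectoderm turned as well. With TMM factors the collar mean was higher in 21 of the 55 genes and the papilla ectoderm mean in 34, and the median ratio of collar to papilla ectoderm was 0.882. The 55 genes then summed to 6644, 6160, 6208 and 6283 CPM in the collar of male 1, male 2, female 1 and female 2 (6324 ± 219 CPM). They summed to 13241, 5381, 4152 and 7269 CPM in the papilla ectoderm of the same birds (7511 ± 4030 CPM). By both scalings the papilla ectoderm was the higher of the 2 tissues in male 1 and female 2 and the lower in male 2 and female 1.

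Whether the pattern held in a bird that had no part in the choice was examined by choosing genes in 3 birds and reading the fourth. Chosen without male 1, 36 of 39 genes (92.3%) had both the collar and the papilla ectoderm of male 1 above all 4 of its other libraries, against 13.3% of the 6967 genes with at least 10 CPM in both tissues of the 3 birds. Chosen without male 2, it was 51 of 62 (82.3%), against 4.77% of 6987 such genes. Chosen without female 1, it was 37 of 76 (48.7%), against 4.81% of 7052. Chosen without female 2, it was 47 of 52 (90.4%), against 10.5% of 7047. The pattern was thus most frequent in male 1 and female 2 and least frequent in female 1, where the median ratio of the lower tissue to the highest other library was 0.965. The full 1.5-fold ratio was met by 29 of the 39 genes in male 1, 23 of the 62 in male 2, 16 of the 76 in female 1 and 43 of the 52 in female 2. It was met by 2.61%, 0.773%, 0.44% and 1.62% of the genes with at least 10 CPM for the same birds. Between 33 and 49 of the 55 genes were chosen again when a bird was left out.

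**Figure D3:**
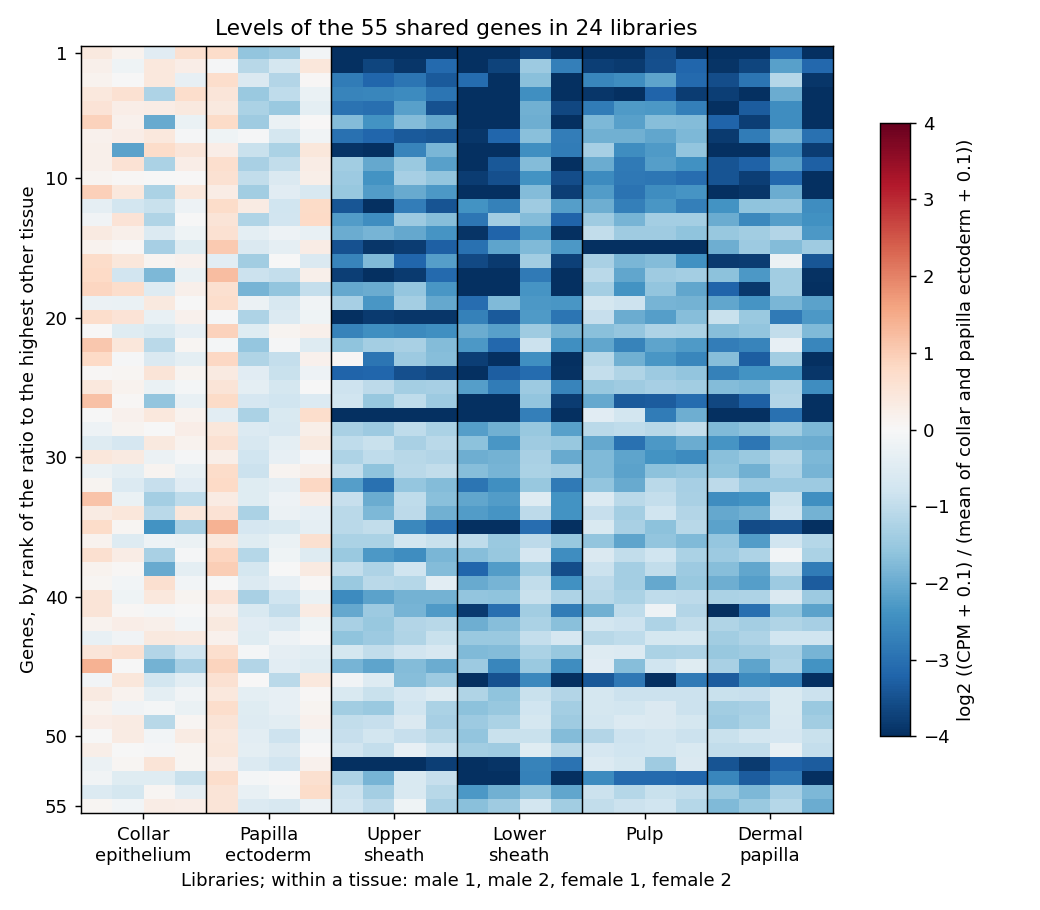
Levels of the 55 genes (rows, ordered by rank of the ratio) in 24 libraries (columns, by tissue and within a tissue in the order male 1, male 2, female 1, female 2), as log2 of CPM plus 0.1 over the gene's mean of collar and papilla ectoderm plus 0.1. Male 1 is the highest papilla ectoderm library in 42 genes and female 1 the highest lower sheath library in 50, with no such counts over all genes given here.

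The spread of the 55 genes between birds had a higher median than that of genes in general in all 6 tissues, and in the collar the medians lay closest. The coefficient of variation over the 4 libraries had a median of 40.8% over the 55 genes in the papilla ectoderm, against 26.1% over the 7451 genes with at least 10 CPM in both tissues. In the collar it was 24.5% over the 55 genes, against 22.2% over the same 7451. It was 51.7% against 18.6% in the lower sheath, 38.8% against 13.6% in the dermal papilla, 23.5% against 14.7% in the upper sheath and 21.7% against 11.3% in the pulp. The 7451 genes were not matched to the 55 in level, and the 55 had been chosen for low means in these 4 tissues. The part of the choice in the spread was not tested. Of the 4 papilla ectoderm libraries male 1 was highest in 42 genes and lowest in 0, and male 2 was lowest in 36. The same counts over all genes are not given here. By file totals, both female libraries exceeded both male ones in 0 of the 55 in this tissue, against 39.1% of all genes tested. The reverse held in 1 of the 55, against 3.74%. The 10 most abundant genes took 38.4% and 42.7% of counts in the males there, and 25.5% and 30.9% in the females. These counts are not adjusted for that. The choice used a mean that includes male 1, which also favours few genes with both females higher. Among the papilla ectoderm libraries, genes high in the pulp and low in the collar were lowest in male 1, where the 55 genes were highest. A set of 134 pulp genes, whose lowest pulp library exceeded 50 CPM and was over 20 times their highest collar library, stood at a median of 2.42% of its pulp level in the papilla ectoderm of male 1. It stood at 22.2%, 36.8% and 26.8% in the papilla ectoderm of male 2, female 1 and female 2. The 55 genes stood at a median of 144%, 65.6%, 67.0% and 103% of their mean level in those 4 libraries. The pulp set was chosen against the collar only, so it is not particular to the pulp. It stood at 57.3% to 59.7% of its pulp level in the dermal papilla libraries. In the lower sheath it stood at 35.0% to 49.6%, and in the upper sheath at 26.3% to 33.0%. The part of these genes in the spread of the 55 was not tested. In whole tissue, fewer cells of a kind and less RNA per cell cannot be told apart.

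Collar-typical genes were followed in the same way. A set of 25 collar genes was defined in the males, where the lower collar library exceeded 50 CPM and was over 20 times the highest male library outside the collar and papilla ectoderm. It stood at 0.108% to 0.910% of its collar level in the 4 papilla ectoderm libraries. Of the 55 genes 0 belong to that set. In the lower sheath of female 1, by contrast, the collar set reached 10.3% of its collar level, against 0.0108% to 0.0430% in the other 3 birds. In the dermal papilla of female 1 it reached 3.29%, against 0.0245% to 0.0261% in the others. Those libraries were also the highest of their tissue in 50 and in 47 of the 55 genes, with no such counts over all genes given here. The median level of the 55 genes was 34.8% in the lower sheath of female 1, against 13.3% to 15.3% in the other birds, and 38.1% in its dermal papilla, against 18.1% to 25.0%. The part of collar transcripts in these values was not tested.

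The sexes were compared in each tissue with edgeR's quasi-likelihood test over all 14077 genes that passed the filter on low counts, and all 55 members were among these. The choice had dropped the 247 genes with the same sex order in all 6 tissues. Those of them that passed the filter still count in the shares and medians over all genes. In the collar epithelium 1 of the 55 genes (1.82%) was higher in males and 0 in females, at an adjusted p under 0.05. Over all genes tested it was 0.170% in the male direction and 0.760% in the female direction. The papilla ectoderm likewise had 1 of the 55 higher in males (1.82%) and 0 in females, against 0.796% and 1.24% of all genes. The same gene was called in both tissues. The 4 other tissues gave 0 calls among the 55. At an unadjusted edgeR p under 0.05 the collar had 7 of the 55 (12.7%), against 20% of all genes. The papilla ectoderm had 11 (20%), against 16.8% of all genes. The 4 other tissues had 3 (upper sheath, 5.45%), 8 (lower sheath, 14.5%), 2 (pulp, 3.64%) and 6 (dermal papilla, 10.9%). Over all genes the shares in these 4 were 7.49%, 8.79%, 8.11% and 5.80%. DESeq2 called 3 of the 55 (5.45%) in the lower sheath and 1 (1.82%) in the dermal papilla, against 2.33% and 1.43% of all genes. Over all genes edgeR called 0.590% (upper sheath), 0.483% (lower sheath), 0.952% (pulp) and 0.398% (dermal papilla) in either direction. With a bird left out, a group holds 1 library, and calls changed both among the 55 and over all genes. Counts from those fits are therefore not compared here. Without male 2 the male papilla ectoderm is the library of male 1 alone, which the choice favoured. With 2 birds a sex, these p-values rest on a spread estimated over all 24 libraries and 12 groups. The libraries of a bird were treated as independent in that fit.

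The gene called, ENSGALG00000002009.4, had 27.1 and 29.5 CPM in the collar of males 1 and 2, against 8.53 and 11.03 CPM in females 1 and 2. In the papilla ectoderm it had 31.3 and 18.3 CPM in males, against 15.1 and 14.6 CPM in females. The sexes did not overlap in either tissue, and the gap was narrower in the papilla ectoderm, where male 2 stood nearest to the females. On the log2 scale the males exceeded the females by 1.25 ± 0.26 (SE) in the collar (adjusted p = 0.0334) and by 1.19 ± 0.26 in the papilla ectoderm (adjusted p = 0.0268), by edgeR's quasi-likelihood test. In the pulp it had 13.7 and 13.3 CPM in males and 8.11 and 8.20 CPM in females, which missed the threshold after adjustment by the same edgeR test (adjusted p = 0.357). The same log2 difference lay in both sheaths and in the dermal papilla between -0.17 and 0.15. The collar call was lost in edgeR without male 1, female 1 or female 2, where the log2 difference was 1.45, 1.20 and 1.30. It was also lost in edgeR with the 4 collar libraries alone (adjusted p = 0.222). By DESeq2 with all libraries the adjusted p was 0.000425. The papilla ectoderm call was lost in edgeR without male 1, female 1 or female 2, where the log2 difference was 0.70, 1.15 and 1.26. It was lost too without the papilla ectoderm library of male 1 alone (log2 difference 0.71). With the 4 papilla ectoderm libraries alone the call was also lost (adjusted p = 0.984, edgeR). By DESeq2 with all libraries the adjusted p was 0.000369.

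In the papilla ectoderm the 55 genes as a group lay on the male side only with the library of male 1 included. Male 2 was the lowest of the 4 libraries there in 36 of the 55. The choice used the papilla ectoderm mean, which includes male 1, and 34 of the 55 met it without that library. It therefore favoured genes high in that library, and the values for this tissue describe the choice in part. The log2 difference, male minus female, was above 0 in 52 of the 55 genes with a median of 0.69, against 0.05 over all genes tested. Without the papilla ectoderm library of male 1 it was above 0 in 19 of the 55 and the median was -0.20, against -0.02 over all genes. Without male 2 it was above 0 in 54 of the 55 and the median was 1.21, against -0.03 over all genes. In the collar the median was 0.05, with 29 of 55 genes above 0, against -0.09 over all genes. In the lower sheath 49 of the 55 lay on the female side (median -0.41, against -0.04 over all genes), and in the dermal papilla 37 of the 55 (median -0.19, against -0.04). Without female 1 these medians were 0.15 and 0.19, on the male side. In the upper sheath and the pulp the medians were 0.03 and -0.02.

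**Figure D4:**
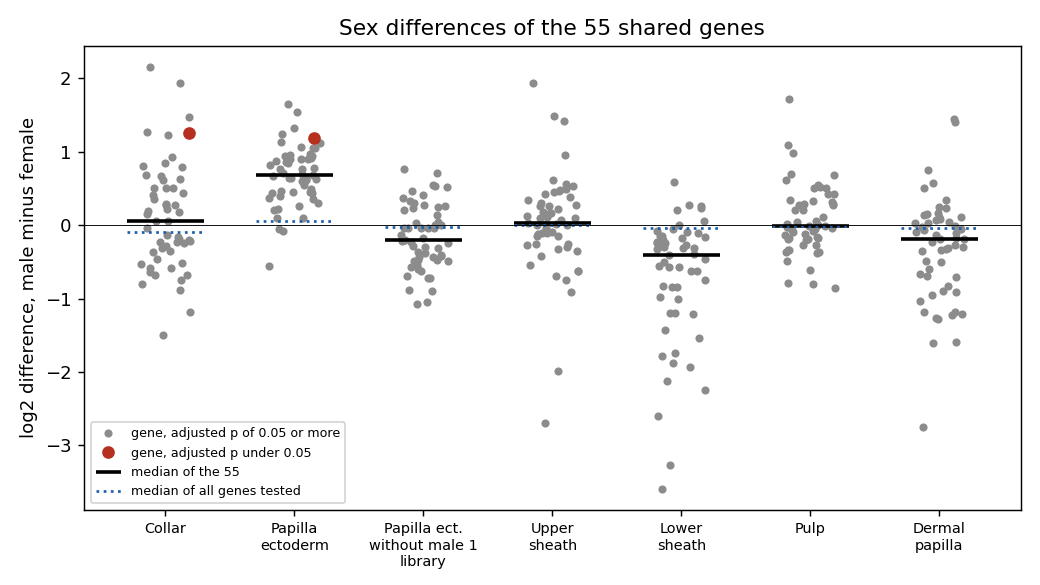
Log2 difference, male minus female (y axis), of the 55 genes in each tissue (x axis), with the papilla ectoderm shown also without the library of male 1; black lines are medians of the 55 genes, dotted blue lines medians of all genes tested, and red points genes with an adjusted p under 0.05. The papilla ectoderm median stands at 0.69 with all libraries and at -0.20 without that of male 1.

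The difference between the collar and the papilla ectoderm in their sex effect was itself tested, and 0 of the 55 genes passed (edgeR, smallest adjusted p = 0.0849), against 0.0213% of all genes (3 of 14077). At an unadjusted p under 0.05 there were 10 of the 55 (18.2%), against 18.2% of all genes. DESeq2 called 2 of the 55 (3.64%), against 6.60% of all genes. The median of the 55 differences, collar minus papilla ectoderm, was -0.55, against -0.11 over all genes, and 0.24 without the papilla ectoderm library of male 1. The gene called in both tissues had a difference of 0.06 ± 0.36 (SE).

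The choice capped the level of each of the other 4 tissues but did not fix their order. Genes highest in any of these tissues were left out by it, but count among all genes tested. The part of this in the shares called between these tissues was not tested. The highest of them was the pulp in 27 genes, the upper sheath in 20, the dermal papilla in 7 and the lower sheath in 1 by file totals. With TMM factors the upper sheath led, in 23 genes, before the pulp in 18, the dermal papilla in 12 and the lower sheath in 2. By file totals the lowest was the lower sheath in 28, the upper sheath in 13, the dermal papilla in 8 and the pulp in 6. With TMM factors it was the lower sheath in 22, the upper sheath in 13, the dermal papilla in 11 and the pulp in 9. Relative to each gene's mean over collar and papilla ectoderm, tissue means by file totals had a median of 30.7% in the upper sheath, 20.4% in the lower sheath, 36.4% in the pulp and 26.7% in the dermal papilla.

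The upper sheath was set against the mean of the lower sheath, pulp and dermal papilla. In edgeR's test with all libraries, 11 of the 55 genes (20%) were higher and 8 (14.5%) lower in the upper sheath. Over all genes tested the shares were 18.3% and 15.7%, close to those of the members. The median log2 difference of the 55 was 0.21, against -0.03 over all genes. Without the lower sheath and dermal papilla libraries of female 1 it was 0.37, against -0.02 over all genes. ENSGALG00000016755.4 had 13.9, 10.7, 4.601 and 5.56 CPM in the upper sheath of male 1, male 2, female 1 and female 2. The other 3 tissues averaged 1.20 to 1.73 CPM, and their highest library had 2.62 CPM. The log2 difference was 2.48 ± 0.38 (SE, adjusted p = 0.000156, edgeR). ENSGALG00000002367.4 stood at 34.3 ± 11.9 CPM in the upper sheath, against 4.61 to 9.27 CPM on average in the other 3 tissues (2.33 ± 0.38, adjusted p = 0.000281, edgeR). ENSGALG00000008279.4 was the reverse, at 1.68 ± 0.077 CPM in the upper sheath, against 3.82 to 8.47 CPM on average in the others (-1.85 ± 0.29, adjusted p = 0.000181, edgeR). ENSGALG00000025822.1 was also lower, at 4.59 ± 1.85 CPM against 9.14 to 12.4 CPM, with a call that was lost without male 2 (-1.26 ± 0.31, adjusted p = 0.00617, and 0.0807 without that bird, edgeR). The genes named here are examples, since the shares called in both directions lay near those over all genes. Calls numbered 12 without male 1, 11 without male 2 and 11 without female 2, instead of 19, while calls over all genes fell to 26.8%, 23.3% and 18.2%, instead of 34.0%.

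Between the sheaths, 9 of the 55 genes (16.4%) were higher and 5 (9.09%) lower in the upper sheath, against 7.39% and 5.25% of all genes. The median log2 difference was 0.39, against -0.04 over all genes. ENSGALG00000002367.4 (34.3 ± 11.9 against 4.61 ± 4.49 CPM) and ENSGALG00000016755.4 (8.70 ± 4.40 against 1.20 ± 0.91 CPM) again had the largest differences upwards among the calls without overlap (log2 2.81 ± 0.55 and 2.65 ± 0.54, adjusted p = 0.0031 and 0.00424, edgeR). ENSGALG00000012470.3 stood at 2.11 ± 0.44 CPM in the upper sheath and 5.59 ± 1.82 CPM in the lower (log2 difference -1.53 ± 0.35, adjusted p = 0.00875, edgeR). ENSGALG00000025822.1 stood at 4.59 ± 1.85 and 11.4 ± 4.70 CPM (-1.44 ± 0.36, adjusted p = 0.0153, edgeR). Leaving out male 1 ended the calls of both genes higher in the upper sheath (adjusted p = 0.103 and 0.107). The calls of both lower genes ended when single birds were left out, the first without male 2, female 1 or female 2 (0.0585 to 0.201) and the second without male 1, male 2 or female 2 (0.0540 to 0.130). The second call also ended without the lower sheath and dermal papilla of female 1 (0.0549). Calls numbered 2 without male 1 (3.64%), 7 without male 2 (12.7%) and 3 without female 2 (5.45%), instead of 14 with all birds (25.5%). Over all genes calls stood at 6.61%, 6.80% and 4.82%, instead of 12.6%, so without male 1 the members' share lay below that of all genes. Without both of those female 1 libraries 15 genes were higher (27.3%) and 1 lower (1.82%), against 6.97% and 3.60% of all genes.

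Between the connective tissues, 2 of the 55 genes (3.64%) were higher and 6 (10.9%) lower in the dermal papilla than in the pulp, against 13.9% and 12.4% of all genes. ENSGALG00000012470.3 had 6.82, 9.57, 7.95 and 9.90 CPM in the dermal papilla of male 1, male 2, female 1 and female 2, against 1.46, 1.04, 0.737 and 0.784 CPM in their pulp. Its log2 difference was 3.36 ± 0.38 (adjusted p = 1.71e-05, edgeR), and the groups did not overlap. ENSGALG00000014897.4 had 3.69 ± 0.64 CPM in the dermal papilla and 24.1 ± 5.96 CPM in the pulp (-2.48 ± 0.30, adjusted p = 3.06e-05, edgeR). ENSGALG00000003582.4 had 1.42 ± 1.47 and 12.6 ± 8.14 CPM, with pulp levels of 21.4 and 17.4 CPM in males and 4.16 and 7.45 CPM in females. Its tissue call (-2.83 ± 0.66, adjusted p = 0.00508, edgeR) was lost without male 1 (0.0518) or male 2 (0.0751). Without the lower sheath and dermal papilla libraries of female 1 the counts were 2 higher (3.64%) and 14 lower (25.5%), against 11.1% and 10.3% of all genes. Calls numbered 4 without male 1, 5 without male 2 and 3 without female 2, instead of 8, while calls over all genes stood at 19.2%, 17.7% and 9.44%, instead of 26.2%.

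The lower sheath set against the dermal papilla gave the fewest calls of the 4 tissue comparisons. None of the 55 was higher and 1 (1.82%) was lower in the lower sheath, against 6.32% and 5.43% of all genes. By edgeR 7 of the 55 (12.7%) had an unadjusted p under 0.05, against 24.9% of all genes. The bird as a block gave 2 lower (3.64%), against 6.89% of all genes, and DESeq2 2, against 7.13%. ENSGALG00000011008.4 had 1.66, 2.78, 5.39 and 0.968 CPM in the lower sheath of male 1, male 2, female 1 and female 2, against 9.17, 10.02, 11.8 and 5.39 CPM in their dermal papilla. The lowest dermal papilla value and the highest lower sheath value were nearly equal, and within each bird the lower sheath was lower. The log2 difference was -1.66 ± 0.39 (adjusted p = 0.0112, edgeR), lost without male 1 (0.142), male 2 (0.0869) or female 2 (0.0803) and with the 8 libraries alone (0.0881).

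Outside the set, the genes whose profile over the 12 group means was most like the mean log2 profile of the 55 were sought among 7396 genes with at least 10 CPM in both tissues. They are given as a description. ENSGALG00000014505.3 had the highest Pearson correlation (0.953). It stood at 129 ± 16 CPM in the collar and 304 ± 226 CPM in the papilla ectoderm, 2.36-fold apart and so outside the limit, and at 9.54 to 20.02 CPM on average in the other tissues. ENSGALG00000010761.4 (0.948) stood at 42.6 ± 1.93 and 34.4 ± 5.74 CPM in the collar and papilla ectoderm, and ENSGALG00000009119.4 (0.946) at 23.4 ± 5.05 and 20.1 ± 3.04 CPM. Both fell short of the ratio, at 1.27 and 1.37.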

How the data were processed

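Raw whole-number counts per Ensembl gene were used as deposited, 1 file per library, per the file headers. Genome build galGal4, HTSeq 0.6.0, STAR 2.4.1d and edgeR are named, per the submitters' processing notes. No source used here gives the strand setting or annotation release, so counts of overlapping or antisense genes are uncertain. Libraries held 12514383 to 31404619 counts. Replicate libraries of a group differed by more than sampling noise (median chi-square per gene 4.22 to 30.0).

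Levels are CPM by file total. Tests used R 4.3.3 and edgeR 4.0.16 on the counts (TMM, filterByExpr with a minimum count of 10, 12 group means, all 24 libraries, 12 residual degrees of freedom), with Benjamini-Hochberg adjustment over all genes tested and a threshold of 0.05. Standard errors come from the F statistic. DESeq2 1.42.0, RLE scaling, no filter, the libraries of the compared tissues alone, each bird left out and, for contrasts within birds, the bird as a block were alternatives. The script was tested on simulated data for the direction and size of known changes and for false calls. A required rate of recovery was dropped from that test after the difference between sex effects, the least powerful contrast simulated, had missed it. The tissues of a bird are paired by the animal the labels name. Deviations from group means of the same bird in 2 tissues correlated at 0.00943 to 0.609. The correlation was above 0.1 in 25 of 30 cases, each a pair of tissues in a sex. It ran from 0.107 to 0.426 in males, and all cases under 0.1 were in females. Log2 profiles used a prior count of 2. The members, the pulp and collar gene sets and the comparisons were chosen with earlier results of these data known. Identifiers named are those with the largest ratio, the highest level and, in each test, at most 2 per direction with the largest fold among called genes without overlap between the groups.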

Additional observations from a re-analysis of the deposited data

Results flagged for a closer look

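In the 4 libraries of a tissue, a single library lay far from the other 3 in 5 of the 84 cases examined (the summed level and each named gene in each tissue), and chance flags about 1 in 20 such cases. ENSGALG00000026503.1 had 1.34 CPM in the lower sheath of female 1, against 0.0717 to 0.154 CPM in the other birds. ENSGALG00000003582.4 had 4.27 CPM in the same library, against 0.0405 to 0.394 CPM. ENSGALG00000011008.4 had 40.9 CPM in the papilla ectoderm of male 1, against 20.3 to 23.1 CPM. ENSGALG00000011696.4 had 199 CPM in the dermal papilla of male 1, against 150 to 153 CPM. ENSGALG00000002367.4 had 12.5 CPM in the pulp of male 1, against 7.94 to 8.34 CPM.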

How the results depend on the processing

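Scaling by TMM factors for the order of tissues was chosen after seeing the data: the collar was then higher in 21 genes instead of 36, and the pulp the highest other tissue in 18 instead of 27. The number of genes meeting the conditions, 55, became 277 with TMM factors, 26 with a ratio of 2 and 10 with a ratio of 3, and ran from 39 to 76 with a bird left out. With the median of the 4 libraries in place of the mean it was 44, with 38 of the 55 among them. Members called in edgeR numbered 1 for sex in the collar, and 4 by DESeq2 and 0 with the tissue alone, against 0.495% of all genes in the last. For sex in the papilla ectoderm the count was 1, and 0 with the tissue alone, where 0 of all genes were called. For sex in the other 4 tissues it was 0, and 4 by DESeq2 and 2 with each tissue alone. For the difference between the sex effects it was 0, and 2 by DESeq2. The counts for sex and for this difference also moved with a bird left out, as did those over all genes. For the upper sheath against 3 tissues it was 19, and 11 to 14 with a bird left out. For the sheaths it was 14, and 2 to 11. For the dermal papilla against the pulp it was 8, and 13 with these tissues alone, 16 without the female 1 lower sheath and dermal papilla libraries and 3 to 9 with a bird left out. For the lower sheath against the dermal papilla it was 1, and 2 by DESeq2 and 2 with the replicate block. With these tissues alone it was 0, against 13.4% of all genes. It also moved with a bird or the female 1 libraries left out, as did the count over all genes. The block changed no other count of calls by more than 1.5 times and no call of a named gene. The 4 calls by DESeq2 for sex in the collar were 7.27% of the 55, against 8.69% of all genes. Both sex calls with each tissue alone were in the pulp, 3.64% of the 55 against 4.76% of all genes. The 13 calls between dermal papilla and pulp alone were 23.6% of the 55, against 41.7% of all genes. Of 137 alternative values of named genes 112 kept their call, 25 lost it and 0 changed sign. Alternatives that left out a library standing apart, and the block for the sex effects, were chosen after seeing the data. With a bird left out, a group of 1 library is assumed to vary like the others. A gene near 1 CPM rests on few counts, since 1 count was worth 0.0318 to 0.0799 CPM.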
